A study of Homo sapiens with 11 samples.

Results

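The nuclear receptor genes are 42 members of the superfamily of ligand-controlled transcription factors, taken by name and set against 20033 protein-coding genes. For each of them, the CTCF summits inside the gene body or within 20 kb of it were collected on hg38, which gave 114 of 31112 summits in ORC2 deletion cells, 70 of 20810 in rescue cells and 63 of 19044 in WT cells. All 42 symbols were found in the gene table. CTCF was mapped by CUT&RUN, in which an antibody-tethered nuclease cuts out the DNA that a protein occupies, in HCT116 p53-/-, a human colorectal cancer line without p53. The ORC2 deletion cells are a single CRISPR/Cas9 clone of that line from which ORC2, which belongs to the complex that marks replication origins, was deleted. The summit lists hold no measure of ORC2 itself. The rescue cells are clones of ORC2 deletion cells that carry ORC2 on the plasmid pLHCXORC2, and the WT cells are the p53-/- parent line, so that p53 is absent from all of them. Each genotype had 2 CTCF libraries, but the deposited lists give 1 list of summits per genotype and name no replicate.

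Most nuclear receptors have a zinc-finger DNA-binding domain and a ligand-binding domain. Steroid receptors bind DNA mostly as homodimers, whereas receptors for thyroid hormone, retinoic acid, vitamin D, fatty acids, oxysterols, bile acids and xenobiotics pair with an RXR, and the orphan receptors have no established natural hormone. CTCF is a sequence-specific zinc-finger protein that stops cohesin as it extrudes chromatin loops. In the intestine, VDR, NR1H4 and PPARD carry signals of vitamin D, bile acids and fatty acids.

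No value below has a replicate check: a difference between lists can come from genotype, from clone, from library depth, which is unknown, or from peak calling, and these cannot be told apart. Weaker binding in each cell and binding in fewer cells cannot be told apart either. Each summit has a −log10 q, the authors' own value from their peak caller, which is not scaled between lists and is given only to describe and rank summits within a list. No IgG summit, out of 34 in ORC2 deletion, 33 in rescue and 17 in WT, lay at any of the 42 genes.

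Nuclear receptor genes carried more CTCF summits in ORC2 deletion than in WT cells, by a margin close to that of the whole lists. The 114 summits in ORC2 deletion were 1.81 times the 63 in WT (95% interval 1.32 to 2.50, counting error only), against 1.63 times over all summits. The interval takes both counts as independent, although most WT summits lay at places shared with ORC2 deletion. The 70 summits in rescue were 1.11 times the WT number (0.779 to 1.59), against 1.09 times over all summits. Per Mb of the 6.61 Mb covered, that is 17.3 summits in ORC2 deletion, 10.6 in rescue and 9.53 in WT, where the windows of all protein-coding genes had 14.5 in ORC2 deletion, 9.79 in rescue and 8.95 in WT. When the lists were cut to the 19044 highest-scoring summits each, which makes ORC2 deletion over WT equal to 1 over all summits, the genes had 68 summits in ORC2 deletion, 67 in rescue and 63 in WT, and ORC2 deletion over WT was 1.08 (0.755 to 1.55).

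At the level of genes, 27 of the 42 receptors had more summits in ORC2 deletion than in WT, 10 had as many with at least 1, 5 had none in any list, and 0 had fewer. Over all protein-coding genes 45.1% had more and 4.83% had fewer. Of the 15 receptors with a body of 100 kb or more, 13 had more, 86.7% against 64.5% of genes of that length. Of the 27 shorter ones, 14 had more, 51.9% against 41.2%. With lists of equal length, 12 receptors had more, 28.6% against 16.9% of all protein-coding genes. Rescue exceeded WT at 11 receptors, 26.2%, against 22% of all protein-coding genes, equalled it at 13 with at least 1 summit, and had fewer at 5. The number of summits per gene had a median of 2 in ORC2 deletion, 1 in rescue and 1 in WT.

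**Figure D1:**
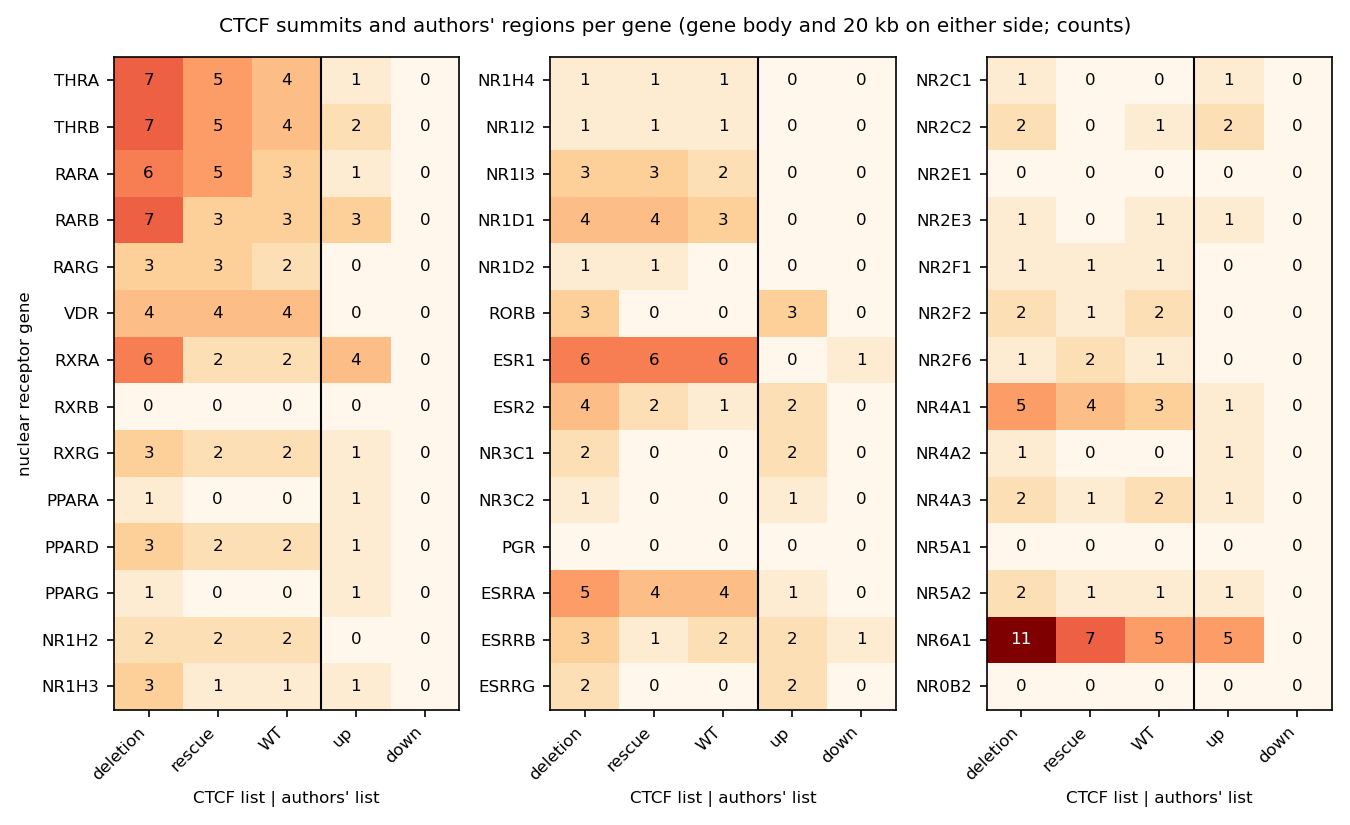
Number of CTCF summits in the body of each of the 42 genes and the 20 kb on either side, in the ORC2 deletion, rescue and WT lists, and number of regions of the authors' up and down lists there (colour and digits show the count). NR6A1 has the most in ORC2 deletion (11) and rescue (7), ESR1 the most in WT (6), and RXRB, PGR, NR2E1, NR5A1 and NR0B2 have none in any list.

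WT sites at receptor genes were mostly found again in ORC2 deletion. Of the 63 WT summits, 58 had a summit of ORC2 deletion within 500 bp, 92.1% (95% Wilson interval 82.7 to 96.6), against 89.5% of all WT summits. With rescue summits 53 were shared, 84.1% (73.2 to 91.1), against 76.2% of all WT summits. In the other direction, 56 of the 114 summits of ORC2 deletion had no WT summit, 49.1% (40.1 to 58.2), against 45.2% of all. Of these 56, 14 had a rescue summit, 25.0% (15.5 to 37.7), against 32.3% of all. The distance allowed matters: within 100 bp the first share was 58.7% and the share without a WT summit was 67.5%. With lists of equal length, 77.8% of WT summits had a summit of ORC2 deletion, against 74.7% of all, and 27.9% of summits of ORC2 deletion had none of WT, against 25.3% of all.

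Joined within 500 bp, the summits formed 121 sites. All 3 lists had 51 of them, 42.1%, against 40.6% of all sites, and they spanned a median of 104 bp. Another 42 were in ORC2 deletion alone, 34.7% against 27.3% of all sites, and 14 were in ORC2 deletion and rescue but not WT, 11.6% against 13.0%. ORC2 deletion and WT without rescue had 7 sites, 5.79% against 8.43%. The other 7 sites were without ORC2 deletion. Rescue and WT shared 2, at ESR1 and ESRRB, 1.65% against 1.18% of all sites. Rescue alone had 2, at NR6A1 and NR2F6, 1.65% against 5.00%. WT alone had 3, at NR2C2, NR2E3 and NR4A3, 2.48% against 4.49%.

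The authors' deposited up list, whose regions hold a summit of ORC2 deletion and none of rescue or WT, had 42 regions at 25 of the 42 genes. That is 59.5% of the receptors, against 37.8% of protein-coding genes. The absence of these regions from rescue follows from how the list is made up and is no result. Receptor genes are longer than most, with a median window of 86.7 kb against 64.1 kb. Of the 15 receptors with a body of 100 kb or more, 13 had an up region, against 57% of all genes of that length, and of the 27 shorter ones 12 had one, 44.4% against 33.9%. By summit, 42 of 114 in ORC2 deletion were in the up list, 36.8% (28.6 to 46.0), against 30.9% of all. In the top 19044 summits of ORC2 deletion, 14 of 68 were, 20.6%, against 11.4% of all of those summits. The down list, with WT and rescue but no summit of ORC2 deletion, had 2 regions, at ESR1 and ESRRB, 4.76% of the receptors against 2.27% of protein-coding genes.

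**Figure D2:**
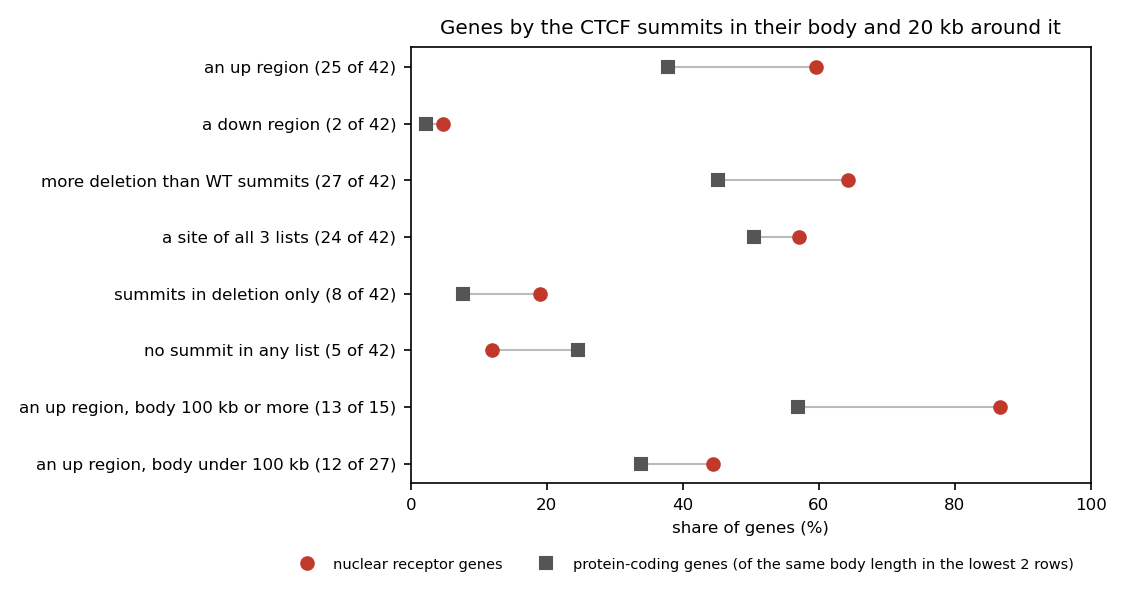
Share of genes (x axis, %) that met each description, for nuclear receptor genes (circles, count in brackets) and protein-coding genes (squares). Receptors lie above protein-coding genes for an up region (59.5% against 37.8%) and for summits in ORC2 deletion only (19.0% against 7.63%), and below them for no summit in any list (11.9% against 24.6%). None of these shares is matched for body length.

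At 8 receptors ORC2 deletion had summits and neither rescue nor WT had any: PPARA, PPARG, RORB, NR3C1, NR3C2, ESRRG, NR2C1 and NR4A2. They are 19.0% of the 42, against 7.63% of protein-coding genes, and all of their summits are among those of the up list. Of receptors with a body of 100 kb or more 5 of 15 were of this kind, against 6.29%, and of shorter ones 3 of 27, 11.1% against 7.9%. No summit in any list was found at 5 receptors, 11.9% against 24.6% of protein-coding genes: RXRB, PGR, which is the progesterone receptor, NR2E1, a factor of neural stem cells, NR5A1, which drives steroid hormone synthesis, and NR0B2, a receptor without a DNA-binding domain. By body length, this was 1 of the 15 long receptors, 6.67% against 10.7%, and 4 of the 27 shorter ones, 14.8% against 27.4%.

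Promoter sequence was looked at because CTCF summits lay at the start of several receptors. RefSeq starts (GRCh38.p14) were found for 38 of the 42 genes, with 92 starts in all, and none for NR0B2, NR2F6, NR4A2 and VDR. At these 38 genes, 11 of 108 summits in ORC2 deletion, 6 of 64 in rescue and 7 of 58 in WT lay within 1 kb of a start of the receptor itself. The starts of any protein-coding gene in the RefSeq table, which leaves those 4 out, were also counted. That close to one lay 16.7% of the summits in ORC2 deletion, 18.6% in rescue and 17.5% in WT. Over the windows of all protein-coding genes the shares were 12.5% in ORC2 deletion, 10.6% in rescue and 12.9% in WT. These shares were not matched for the number of starts, 92 at 38 receptors against 22198 promoters for 20033 protein-coding genes. The conserved letters of the CTCF core motif (CC, 3 of any base, AG, 2 of any base, GGC) were searched on both strands from 250 bases before to 50 after each start. They were in 7 of 92 receptor promoters, 7.61%, against 12.4% of 22198 protein-coding promoters, and a stricter form contained in it, with A right after CC, was in 3, 3.26% against 2.52%. The stretches below are shown because they put the only matches within 500 bp of a summit, NR2C1 and THRA, beside the other matches to the stricter form, at ESR1 and NR1D1. Capitals mark the match, and each is written 5′ to 3′ on the strand of its gene.
NR2C1, chr12:95073696-95073725, minus strand: gcctccaagCCAAAAGGGGGCagtggactc
THRA, chr17:40062822-40062851, plus strand: agggagcagCCGCGAGCCGGCcgggcgcgc
ESR1, chr6:151807668-151807697, plus strand: cccgggagcCCAGGAGCTGGCggagggcgt
NR1D1, chr17:40100732-40100761, minus strand: gctcaacgtGCCGGCTGTTGGaaaagtgtg
The match at NR2C1 lay 84 bp from a summit of ORC2 deletion, in the up list, while the nearest rescue and WT summits were 43460 and 43499 bp away. That at THRA lay 380 bp from a summit of ORC2 deletion and 346 bp from a rescue summit, with the nearest WT summit 7281 bp away. The matches at ESR1 and NR1D1 had no summit of any list within 11 kb, and the one at NR1D1 runs opposite to the gene. A match of letters is no evidence of a bound site.

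The receptors for thyroid hormone, retinoic acid and vitamin D held the most summits by count, 34 in ORC2 deletion, 25 in rescue and 20 in WT over 6 genes. They also covered the most sequence, 1.55 Mb, with 21.9 summits per Mb in ORC2 deletion. Across the subgroups this density ranged from 9.23 at steroid receptors to 38.1 at NR4A receptors. Of the 34, 7 were in the up list, 20.6% (10.3 to 36.8), against 30.9% of all summits of ORC2 deletion. THRA and THRB, the thyroid hormone receptors, had 7 summits each in ORC2 deletion, 5 each in rescue and 4 each in WT. Inside THRA (chromosome 17, 40062193 to 40093867) the highest site had a −log10 q of 15.7 in ORC2 deletion, 7.97 in rescue and 4.61 in WT. At 251 bp after one of its starts, ORC2 deletion (3.41) and rescue (2.90) had a summit and WT had none. The up region of THRA lay outside it, at 40054439 to 40054694 and next to MED24, a Mediator subunit.

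THRB (chromosome 3, 24117153 to 24495708) likewise held sites of all lists together with sites of ORC2 deletion alone. The shared sites lay in its body near 24186199 (16.0 in ORC2 deletion, 13.9 in rescue, 3.74 in WT), 24238074 (12.8 in ORC2 deletion, 6.39 in rescue and 7.02 in WT) and 24264743 (8.92 in ORC2 deletion, 7.78 in rescue and 5.08 in WT). Both up summits, at 24254842 (7.27) and 24296076 (3.68), lay inside the gene too. Around the start of THRB no site was in all lists: paired summits stood at 24495843 (3.19) in ORC2 deletion and 24495536 (7.11) in WT, and at 24496998 (4.70) in ORC2 deletion and 24496614 (6.18) in rescue.

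RARB, a retinoic acid receptor gene of 769 kb (chromosome 3, 24829321 to 25597932), had 7 summits in ORC2 deletion, 3 in rescue and 3 in WT, all inside the gene. Its 3 up summits stood at 24963805 (7.87), 25022206 (5.95) and 25468887 (10.7). The site nearest to the 3′ end, at 25594293, was in all lists, with 12.6 in ORC2 deletion, 4.37 in rescue and 9.78 in WT. RARA, the receptor that is fused to PML in promyelocytic leukaemia, had 6 summits in ORC2 deletion, 5 in rescue and 3 in WT. Near its start, at 40318159 in ORC2 deletion (2.31) and 40317949 in rescue (1.94), a weak summit was absent from WT, and its up summit lay inside the neighbouring CDC6, which loads the replicative helicase, at 40290831 (4.59). RARG, a retinoic acid receptor of skin, had 3 summits in ORC2 deletion, 3 in rescue and 2 in WT, led by 53213306 on chromosome 12 with 23.3 in ORC2 deletion, 5.35 in rescue and 12.1 in WT. VDR had 4 summits in each list, paired at 4 sites and led by 47837951 on chromosome 12 (21.1 in ORC2 deletion, 11.1 in rescue and 11.8 in WT), and it had no up region.

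The RXR genes, whose products pair with many other receptors, differed among themselves. RXRA (chromosome 9, 134326455 to 134440585) had 6 summits in ORC2 deletion, 2 in rescue and 2 in WT, and RXRG had 3 in ORC2 deletion, 2 in rescue and 2 in WT. Of the 9 RXR summits in ORC2 deletion, 5 were in the up list, 55.6% (26.7 to 81.1), against 30.9% of all. All 4 summits inside RXRA were in ORC2 deletion alone and in the up list, at 134379965 (3.18), 134381774 (5.53), 134399497 (5.60) and 134420106 (5.42). The first lies 670 bp from one of the gene's starts. Each ranked below the median of the list, which is 8.06. Beyond the 3′ end, 8995 bp outside the gene, stood the highest summit at any receptor in ORC2 deletion, at 134449580, with 92.8 in ORC2 deletion, 39.9 in rescue and 10.7 in WT. It lay in the top 0.219% of the list of ORC2 deletion, the top 1.19% of the rescue list and the top 20.5% of the WT list, and ranks in lists of different length measure no change. RXRG had its highest site at 165392950 on chromosome 1 (22.5 in ORC2 deletion, 17.2 in rescue and 16.3 in WT), present in all lists, and 1 up summit inside the gene (2.86).

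**Figure D3:**
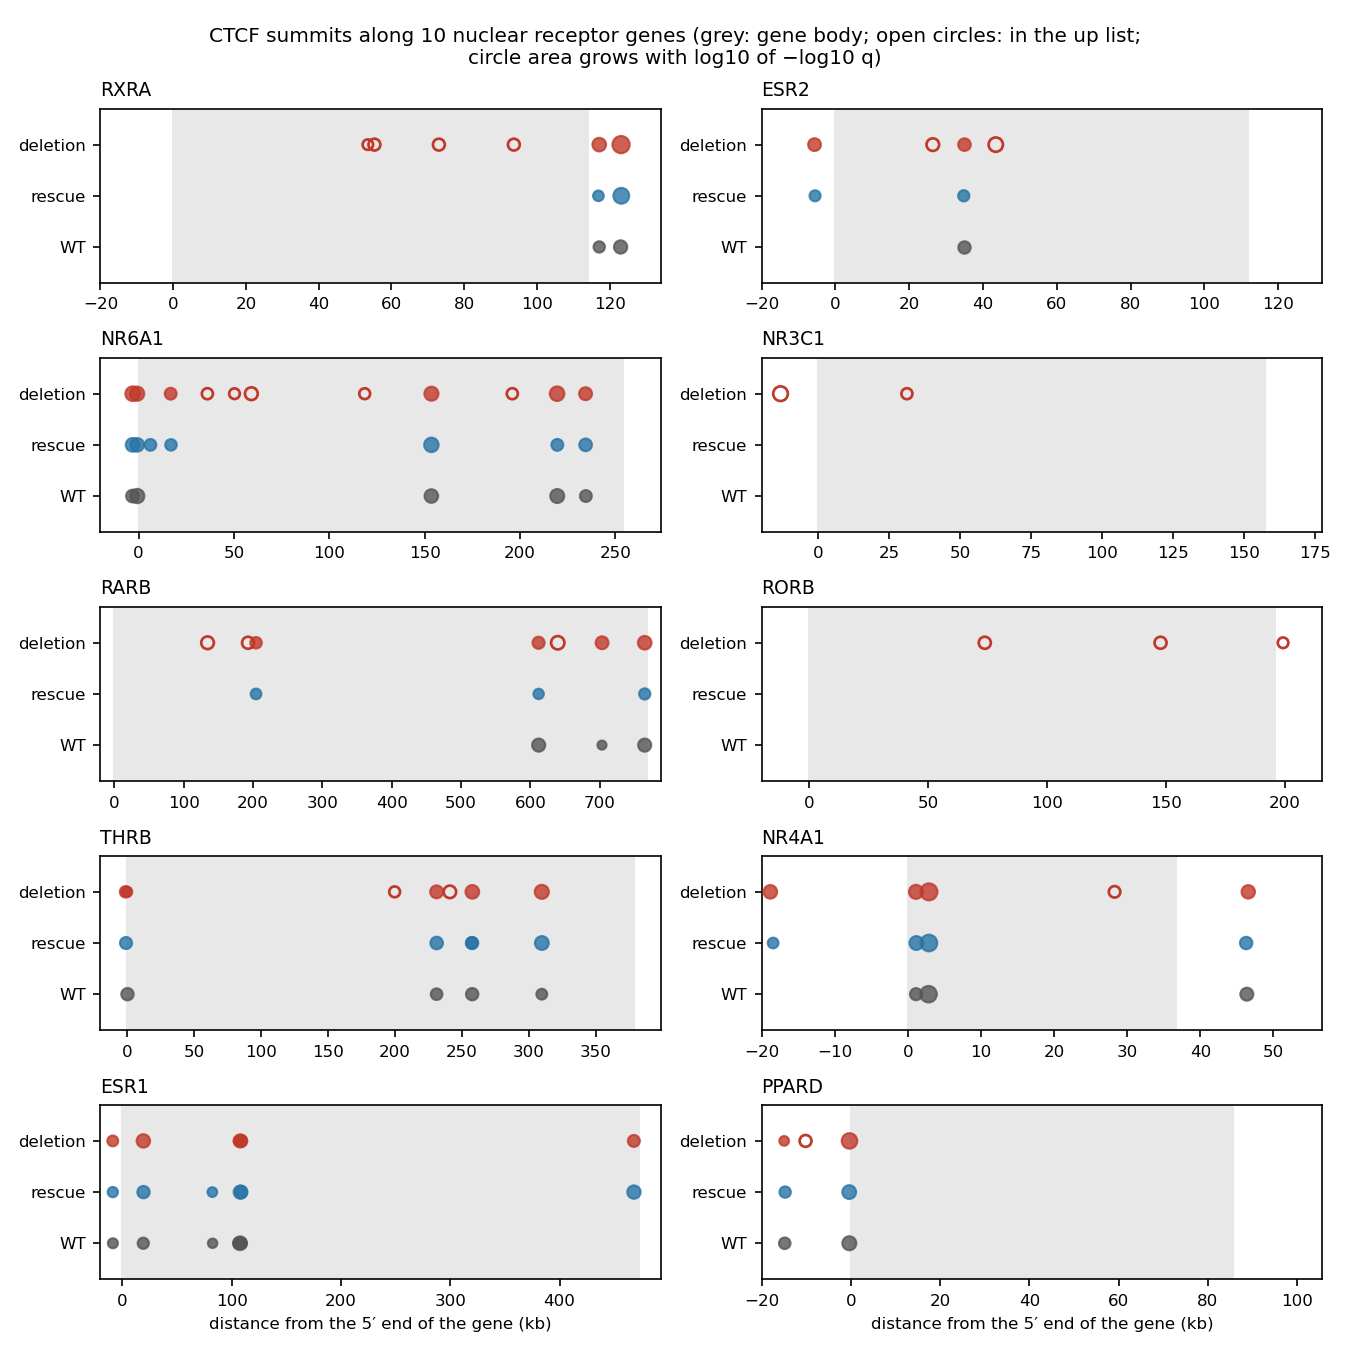
CTCF summits along 10 nuclear receptor genes, by distance from the 5′ end of the gene (x axis, kb), with the ORC2 deletion, rescue and WT lists in rows. Grey marks the gene body, circle area grows with the log10 of the summit's −log10 q, and open circles mark summits in the up list, such as the 4 inside RXRA and the 3 of RORB.

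The lipid and xenobiotic sensors had 15 summits in ORC2 deletion, 10 in rescue and 9 in WT over 8 genes. Of the 15, 4 were in the up list, 26.7% (10.9 to 52.0), against 30.9% of all summits of ORC2 deletion. PPARA, which controls fatty acid oxidation in liver, and PPARG, the regulator of fat cell differentiation, had 1 summit each, in ORC2 deletion alone. These lay in the flanks, 19140 bp before PPARA (6.35) and 10591 bp from PPARG (2.32). PPARD, the form found widely and in gut epithelium, had a strong site 294 bp before its start, at 35342264 on chromosome 6, with 34.6 in ORC2 deletion, 13.6 in rescue and 15.1 in WT. Its up summit lay 10141 bp outside the gene (5.53).

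Among the sterol and bile acid sensors, NR1H3, an oxysterol receptor that controls cholesterol efflux, had 3 summits in ORC2 deletion, 1 in rescue and 1 in WT. Near its start, at 47249042 on chromosome 11, the values were 8.64 in ORC2 deletion and 2.80 in WT, with none in rescue, and the up summit was inside the gene at 47259639 (5.77). NR1H2, its paralog, had 2 summits in every list. NR1H4, the bile acid receptor, had a single site, inside the gene at 100554787 on chromosome 12 (21.6 in ORC2 deletion, 14.7 in rescue and 16.7 in WT). Of the xenobiotic receptors, NR1I2 had 1 site, at 119821268 on chromosome 3 and 53 bp from GSK3B (22.9 in ORC2 deletion, 7.89 in rescue and 5.56 in WT), and NR1I3 had 3 summits in ORC2 deletion, 3 in rescue and 2 in WT, the highest inside TOMM40L (21.7 in ORC2 deletion, 24.2 in rescue and 24.2 in WT). These 4 genes had no up region, and each of their sites was in all lists but for a NR1I3 site, at 161225855 on chromosome 1 (11.1 in ORC2 deletion and 2.51 in rescue), which WT lacked.

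NR1D1 and NR1D2 encode REV-ERB repressors of the circadian clock, and RORB a receptor of retina and brain. NR1D1 overlaps THRA tail to tail by 1075 bp, and its 4 summits in ORC2 deletion, 4 in rescue and 3 in WT are all among those of THRA. NR1D2 had 1 summit in ORC2 deletion (10.7) and 1 in rescue (4.35), both over 18 kb outside the gene, and none in WT. RORB (chromosome 9, 74497335 to 74693177) had 3 summits, all in ORC2 deletion and all in the up list. They were at 74571247 (6.14) and 74645180 (5.99) inside the gene and at 74696721 (3.38), 3544 bp beyond it. At NR1D1, NR1D2 and RORB together, 3 of 8 summits of ORC2 deletion were in the up list, 37.5% (13.7 to 69.4), against 30.9% of all.

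Steroid receptor genes had 13 summits in ORC2 deletion, 8 in rescue and 7 in WT over 5 genes. Of the 13, 5 were in the up list, 38.5% (17.7 to 64.5), against 30.9% of all summits of ORC2 deletion. ESR1 (chromosome 6, 151656672 to 152129619), the oestrogen receptor alpha gene, stood level, with 6 summits in each list and no up region. Its sites near 151764546 (9.83 in ORC2 deletion, 11.2 in rescue, 12.9 in WT) and 151675933 (11.4 in ORC2 deletion, 7.01 in rescue and 4.43 in WT) were in all lists. A weak site inside the gene, 2.50 in rescue at 151739039 and 2.28 in WT at 151739278, had no summit in ORC2 deletion and is in the down list, at 151738897 to 151739451. A site near the 3′ end, at 152124712 and also inside SYNE1, had 5.91 in ORC2 deletion and 11.0 in rescue, and none in WT.

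ESR2, the oestrogen receptor beta gene on chromosome 14, had 4 summits in ORC2 deletion, 2 in rescue and 1 in WT. The highest, at 64295147 (17.3), lay 737 bp from one of the gene's starts and was in the up list, as was 64312209 (7.69). The site of all 3 lists had 7.80 in ORC2 deletion, 4.41 in rescue and 7.07 in WT. NR3C1, the glucocorticoid receptor gene (chromosome 5, 143277931 to 143435512), had summits in ORC2 deletion alone. The summit at 143448819, 13307 bp before the gene, had a −log10 q of 20.7, the highest of the 42 up summits at receptors and in the top 10.4% of its list. The other, at 143404281 (3.94), lay 45 bp from one of the gene's starts. NR3C2, the mineralocorticoid receptor gene, had 1 summit, in ORC2 deletion alone and in the up list, at 148315308 on chromosome 4 (8.87).

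The oestrogen-related receptors, orphan receptors of energy metabolism and early development, had 10 summits in ORC2 deletion, 5 in rescue and 6 in WT. Of the 10, 5 were in the up list, 50.0% (23.7 to 76.3), against 30.9% of all summits of ORC2 deletion. ESRRA, a short gene among many neighbours on chromosome 11, had 4 sites in all 3 lists, led by 64301302 inside CATSPERZ (25.7 in ORC2 deletion, 14.2 in rescue and 10.2 in WT). Its up summit (2.17) lay inside TRMT112. ESRRB (chromosome 14, 76310777 to 76501837), a pluripotency factor in mouse stem cells, had up and down regions both. The down site had 3.30 in rescue and 2.53 in WT. The up summits were at 76387548 (13.4) and 76487675 (2.05), and a site at 76456214 had 12.3 in ORC2 deletion and 2.34 in WT. ESRRG, with a body of 634 kb, had summits in ORC2 deletion alone, at 216742675 (2.88) and 216750060 (6.92) on chromosome 1.

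Of the orphan receptors of the NR2 family, NR2C1 and NR2C2, which repress embryonic globin genes, had 3 up regions between them. NR2C1 had 1 summit, at 95073794 and 176 bp before its start (5.75 in ORC2 deletion), and the promoter stretch given above lies beside it. NR2C2 had 2 up summits in ORC2 deletion, at 14989112 (5.74) inside the gene and at 15051746 (7.63) inside MRPS25, and a WT summit 697 bp from its start (3.32) that no other list had. NR2E3, a photoreceptor factor, had 1 summit in ORC2 deletion at 71802720 (7.40), in the up list, and 1 in WT at 71801229 (4.90), on chromosome 15. The lists thus counted 1 each there, but at places more than 1 kb apart. NR2F1, NR2F2 and NR2F6, which act in organ patterning or in immune cells, had no up region. NR2F1 had a site in all lists 1841 bp outside the gene (12.0 in ORC2 deletion, 9.08 in rescue and 8.80 in WT), and NR2F2 had 2 summits in ORC2 deletion, 1 in rescue and 2 in WT. NR2F6 was the only receptor with more summits in rescue, 2, than in either other list, with 1 each. At these NR2 genes, 4 of 8 summits of ORC2 deletion were in the up list, 50.0% (21.5 to 78.5), against 30.9% of all.

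NR4A genes are immediate-early genes that respond to growth signals without a known hormone. Of their 8 summits in ORC2 deletion, 3 were in the up list, 37.5% (13.7 to 69.4), against 30.9% of all. NR4A1 (chromosome 12, 52022832 to 52059503) held the highest receptor summit of the rescue and WT lists, at 52025726 in the gene, with 79.7 in ORC2 deletion, 65.7 in rescue and 58.8 in WT. It was in the top 0.318% of the ORC2 deletion list, the top 0.356% of the rescue list and the top 0.341% of the WT list. Its up summit, at 52051111 (4.80), was weak by comparison. NR4A2 had 1 summit, 2885 bp outside the gene, in ORC2 deletion alone (7.34). NR4A3 had an up summit inside the gene at 99856099 (6.61) and a WT summit 257 bp from its start (3.02), besides a site in all lists 14590 bp outside it (14.1 in ORC2 deletion, 5.90 in rescue and 7.27 in WT).

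NR6A1, a germ cell nuclear factor (chromosome 9, 124517275 to 124771311), had more summits than any other receptor in ORC2 deletion (11) and rescue (7), against 5 in WT, and the most up regions, 5. All 5 up summits lay inside the gene, with values from 3.41 to 8.25. Its 5 WT sites were in all lists. They include 757 bp before the start (16.9 in ORC2 deletion, 12.6 in rescue and 17.4 in WT) and 124551822 in the body (20.3 in ORC2 deletion, 5.68 in rescue and 15.0 in WT). NR5A1 lies 9875 bp away from it and had no summit within 20 kb. NR5A2, an intestinal and liver receptor, had an up summit at 200131734 on chromosome 1 (3.85) and a site in all lists 8 kb further on (6.49 in ORC2 deletion, 3.92 in rescue and 3.67 in WT). At the NR5A, NR6A and NR0B genes, 6 of 13 summits of ORC2 deletion were in the up list, 46.2% (23.2 to 70.9), against 30.9% of all.

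The up summits at receptor genes came from the lower part of their list, as did up summits at large. Their median −log10 q was 5.71 (n = 42), against 10.7 for the other 72 summits of ORC2 deletion at receptors, and over all summits these medians were 4.34 and 10.8. Below the median of the list were 36 of the 42. The exceptions past a value of 10 were NR3C1, ESR2, ESRRB and RARB, with 1 summit each, and with a minimum of 10 these 4 receptors were the ones left with an up region. At the 51 sites of all 3 lists, ORC2 deletion had the highest of the 3 values in 36, 70.6%, against 77.3% of all such sites, in values that are not scaled between lists. Inside a receptor body lay 30 of the 42 up summits, and 64 of all 114 summits of ORC2 deletion, which include them. The same share was not computed for up summits at other genes.

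**Figure D4:**
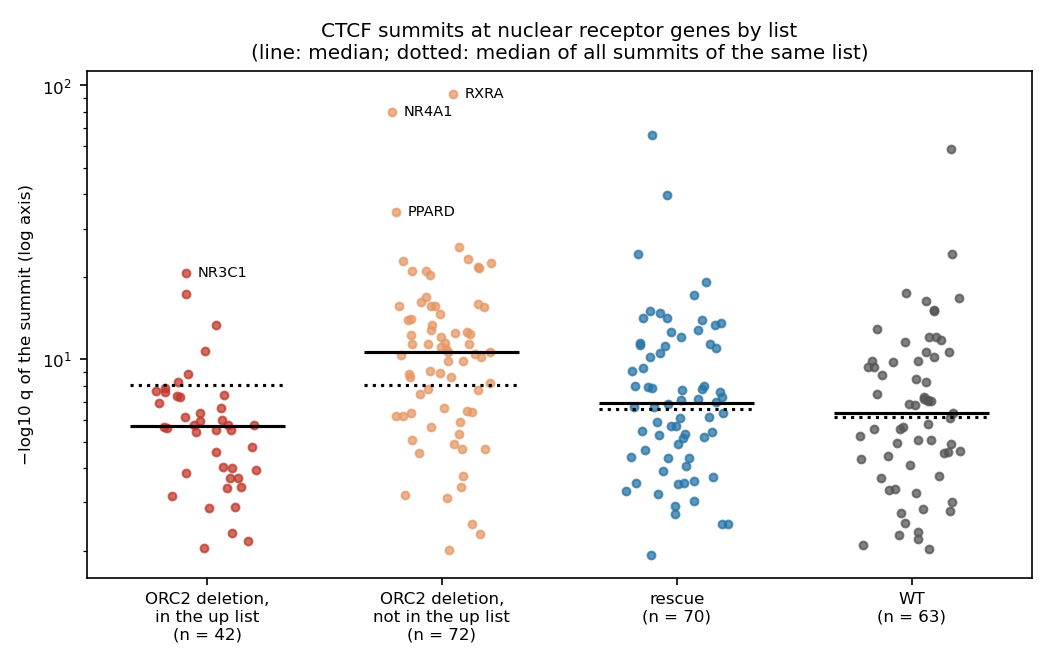
−log10 q (log axis) of each CTCF summit at nuclear receptor genes, for ORC2 deletion summits in the up list and not in it, rescue and WT. Solid lines are medians and dotted lines the medians of all summits of the same list. Up summits lie mostly under the dotted line, and NR3C1 is the highest of them at 20.7.

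Coregulators, the proteins that receptors recruit, were compared as a list of 28 genes. An up region was found at 16 of them, 57.1% against 37.8% of protein-coding genes. A down region was found at 0 (interval 0 to 12.1%), against 2.27% of protein-coding genes. Many are long genes: 12 of the 17 with a body of 100 kb or more had an up region, 70.6% against 57% of genes of that length, and 4 of the 11 shorter ones, 36.4% against 33.9%. There were more summits in ORC2 deletion than in WT at 20, 71.4% against 45.1% of protein-coding genes, and fewer at 0, against 4.83%. Of the 17 long ones 13 had more, 76.5% against 64.5% of genes of that length. In total they had 80 summits in ORC2 deletion, 57 in rescue and 41 in WT, and ORC2 deletion over WT was 1.95 (1.32 to 2.92), against 1.63 over all summits. Of the 80, 28.7% were in the up list (23 summits), against 30.9% of all summits of ORC2 deletion. The highest up summits were at NCOA4 (9.15), the mitochondrial regulators PPARGC1A (8.38) and PPARGC1B (8.24), NSD1, a histone methyltransferase (7.32), and CREBBP, a histone acetyltransferase (6.93). MED1 and NRIP1 had no summit in any list, 7.14% of the 28 against 24.6% of protein-coding genes.

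Well-known target genes of the receptors, 24 in all, had a smaller excess by count. They had 40 summits in ORC2 deletion, 31 in rescue and 34 in WT, and ORC2 deletion over WT was 1.18 (0.726 to 1.92), against 1.63 over all summits. ORC2 deletion exceeded WT at 8 genes, 33.3% against 45.1% of protein-coding genes, and had fewer at 6, 25.0% against 4.83%. Up regions were at 8 targets, 33.3% against 37.8% of protein-coding genes. They were led by FGF19, the intestinal bile acid signal induced by NR1H4 (16.5), TFF1, an oestrogen target (12.3), CYP26B1, which breaks down retinoic acid (6.70), GREB1 (6.19) and DIO1, a thyroid hormone deiodinase (5.84). Down regions were at 2 targets, 8.33% (2.32 to 25.8) against 2.27% of protein-coding genes. These were CPT1A, with 7.74 in WT, and PER1, with 6.99. Most targets are short genes: of the 20 with a body of under 100 kb, 6 had an up region, 30% against 33.9% of genes of that length. More summits in ORC2 deletion than in WT were also at 6 of these 20, 30% against 41.2%. Of the 4 longer targets 2 had an up region, 50% against 57% of genes of that length. More summits in ORC2 deletion than in WT were at 2 of these 4, 50% against 64.5%. The difference between targets and receptors was not tested.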

How the data were processed

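CUT&RUN libraries with a CTCF antibody or IgG from 3 genotypes, 11 libraries in 6 groups, were deposited as summit lists. Per the submitters' processing notes the tools were FastQC 0.11.5, Bowtie2 2.2.9, SAMtools 1.12 and MACS2, on hg38; the settings for calling and duplicates, and whether IgG served as the control, are unstated. Deposited summit lists hold 1 base per peak with a −log10 q from the caller; the lowest values lie just above the −log10 of 0.05. The up and down lists, also deposited, consist of region starts and ends without values, and how they were made is unstated. Library depth is unknown.

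Summits were placed on 1-based coordinates and counted within 20 kb of RefSeq gene bodies (GRCh38.p14, no exons), each once in totals. Summits within 500 bp of each other were matched or chained into sites. This was preferred to 100 bp because summits of 1 peak in 2 lists can lie more than 100 bp apart. Sites of all 3 lists formed in this way spanned a median of 103 bp, which depends on the 500 bp limit and is no support for it. Shares have 95% Wilson intervals and ratios exact binomial ones, for counting error only. The intervals of ratios take both counts as independent and leave out that the lists share many sites. With 1 list per genotype no test was made. Members and gene lists were chosen with earlier results of these data known. Described in full were receptors with an up or down region, the 8 with the most and the 6 with the highest summits of ORC2 deletion, and up to 5 genes each of the coregulator and target lists. Start distances and motifs used RefSeq promoter sequences, and summits on chromosomes without such sequences were left out of the shares near starts. Matching was tested on simulated lists. Other genes are named beside counts of 5 or fewer, or to complete a group, after their values were seen. Computation used pandas 2.3.3, SciPy 1.17.1, NumPy 2.4.6 and matplotlib 3.10.9 under Python 3.11.15.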

Additional observations from a re-analysis of the deposited data

How the results depend on the processing

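Of 61 values under alternative settings, 43 lay inside the reported interval, or for counts at most 1.5 times away, and 18 did not; at that limit, 18 receptors had more summits in ORC2 deletion than in WT within the gene body only. ORC2 deletion over WT and rescue over WT stayed above 1, and the latter stayed inside its interval throughout. The main values lay above those over all summits, but not with each window. Within 50 kb, ORC2 deletion over WT was 1.59, against 1.63 over all summits. There 88.2% of WT summits had a summit of ORC2 deletion, against 89.5% of all. Of summits of ORC2 deletion 44.4% had none of WT, against 45.2%. Rescue over WT was 1.03 within the gene body only, 1.07 within 5 kb and 1.08 within 50 kb, against 1.09 over all summits. With a match within 100 bp, 58.7% of WT summits had a summit of ORC2 deletion and 67.5% of summits of ORC2 deletion had none of WT. Within the gene body only, 46.9% of summits of ORC2 deletion were in the up list, 16 receptors had an up region and 12 a site of all 3 lists. Within 50 kb, 4 receptors had a down region. With −log10 q of at least 5, 0 had one. With at least 10, ORC2 deletion over WT was 2.93, and 68.2% of summits of ORC2 deletion had none of WT. At that minimum 9.09% were in the up list, 4 receptors had an up region, 0 a down region and 10 a site of all 3 lists. A fixed minimum cuts lists whose values are not scaled to each other. Over all summits the median was 8.06 in ORC2 deletion, 6.58 in rescue and 6.18 in WT. The ratio and shares over all summits were not computed at either minimum. With equal list lengths, ORC2 deletion over WT was 1.08, where all summits give 1 by construction, 77.8% of WT summits had a summit of ORC2 deletion, 27.9% of summits of ORC2 deletion had none of WT, 20.6% were in the up list, and 12 receptors had more in ORC2 deletion than in WT. Leaving out a replicate was not possible with lists that name none. No paired analysis was possible because the columns carry no replicate numbers.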
